A study of Mus musculus with 8 samples.

Results

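The TIP peak list was set against the TBP and TCP peak lists of RAW264.7, a line of mouse macrophages, to ask which genes and RNA regions were marked under both TBP and TCP but not under TIP, and which were marked under TIP alone. The comparison was defined by treatment and uses 3 of the series' 8 samples, with no untreated control. The 3 lists hold 16300 of the 20732 peaks of the series. Cells were given 100 µM of TIP, TBP or TCP for 24 h, and 1 library per compound was immunoprecipitated with an antibody to N6-methyladenosine (m6A). The labels use the 3 abbreviations without spelling them out. RNA fragments of 40 to 60 nt were selected before sequencing.

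With 1 immunoprecipitated library per compound there is no replicate, so no difference between lists was tested, and exact Clopper-Pearson 95% intervals cover counting error only. The lists hold no read counts, so the depth behind each is unknown, and a missing peak means only that none was called. These are bulk samples, in which fewer cells of a type and less RNA per cell cannot be told apart. Input libraries were not analysed here, so methylation and RNA level cannot be told apart either. The labelled cell type was checked against markers: of 32 macrophage genes, 9 held a peak in the TIP list, 15 in the TBP list and 11 in the TCP list. Of 35 markers of other cell types, such as epithelium, fibroblasts, endothelium, lymphocytes, muscle and neurons, 0 held a peak in any of the 3 lists.

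m6A is a methyl group on adenosines of messenger and long non-coding RNA. A writer complex built on METTL3 and METTL14 places it, mostly within a short core that often reads GGAC, and it lies mainly in long exons, around stop codons and in 3′ UTRs. FTO and ALKBH5 can remove it, and reader proteins such as the YTHDF family bind it and shorten the life of the RNA or change its splicing, export or translation. In macrophages m6A is known for tuning innate immune signalling.

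A few peaks lie at annotated gene starts, for which sequence was at hand from the RefSeq promoter table (GRCm38.p6), and 3 of each set are shown, chosen after their values were seen, so that the marked RNA can be read. The windows run from 250 bases before to 50 bases after a gene's start, and that of Rbbp6, Prpf31 and Zfp646 belongs to the neighbouring gene on the other strand. Inside such windows lay 6 of 3034 TIP peaks, 25 of 6285 TBP peaks and 26 of 6981 TCP peaks, so these sequences are not typical of the lists. Each is the peak or its middle 30 bases (for Zfp646, of the TBP peak), on the strand of the transcript, 5′ to 3′, with GGAC in capitals. The first 3 lie in regions called in TIP alone, and the last 3 in regions called in both TBP and TCP but not TIP.
Selenoh, 5′ UTR, chr2:84670675-84670704, minus strand: acatttccctttgctgcgagatttgaactt
Yars, exon, chr4:129189910-129189934, plus strand: gcaacccgacgGGACtagcgtgaca
Prpf31, 5′ UTR, chr7:3630008-3630037, plus strand: gctctggggaagcagatttcttggaaacga
Wdr46, 5′ UTR, chr17:33940670-33940699, plus strand: agttttcctagaccgccgagctactactca
Rbbp6, 5′ UTR, chr7:122970587-122970616, plus strand: ccgcggggtcattcGGACtctaacgtgtgg
Zfp646, 5′ UTR, chr7:127876931-127876960, plus strand: aacaataggaagtgtccgcggaactgggct
GGAC, searched on the transcript strand only, occurs in the Yars and Rbbp6 stretches. Of 32851 promoter windows, 9.76% hold GGAC in their last 25 bases and 11.7% in their last 30. Selenoh, a nuclear selenoprotein, had 1 TIP peak and none in TBP or TCP. Wdr46, a nucleolar protein of ribosome biogenesis, had no TIP peak, 1 TBP peak and 1 TCP peak. Yars (tyrosyl-tRNA synthetase), Prpf31 (a splicing factor), Rbbp6 (an RB-binding ubiquitin ligase) and Zfp646 had peaks of the missing list elsewhere in the gene.

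TIP gave the shortest list. It held 3034 peaks in 1794 genes, against 6285 peaks in 3135 genes for TBP and 6981 peaks in 3406 genes for TCP. The TIP list was thus 0.483 times as long as TBP and 0.435 times as long as TCP, and held 1.67 peaks per gene against 1.97 in TBP and 2.02 in TCP. A gene was taken to hold a peak where the peak lay in it on its strand. Of the 4160 genes with a peak in any of the 3 lists, 1439 (34.6%) had one in all 3.

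Absence from TIP alone was the most frequent form of absence at full length. A total of 1031 genes had peaks in both TBP and TCP but none in TIP, which is 24.8% of the 4160 genes and 41.7% (95% interval 39.8 to 43.7) of the 2470 genes marked under both TBP and TCP. By the same count, 164 genes were absent from TBP alone and 102 from TCP alone. In the other direction, 89 genes had a peak in TIP and in neither TBP nor TCP, 2.14% of all genes and 4.96% of the TIP genes. TBP alone held 563 genes and TCP alone 772.

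Regions, made by joining peaks that overlapped by at least 1 bp on the same strand, gave another balance. Of 10844 regions, 1656 (15.3%) were in both TBP and TCP but not TIP, 53.7% (51.9 to 55.5) of the 3083 regions held by both. A further 916 regions (8.45%) were in TIP alone, 31.1% (29.4 to 32.8) of the 2946 regions with a TIP peak. TBP alone held 2834 regions, 45.9% of the regions with a TBP peak, and TCP alone 3408, 49.8% of those with a TCP peak. By the same count, 351 regions were absent from TBP alone and 252 from TCP alone. So TIP alone held few genes but 916 regions, the fewest of the 3 lists. Most of the 916 lay in genes that TBP or TCP also marked at another position.

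List length was then made equal. The authors' score, whose scale is not given in the sources used here, ranks peaks within a list, and TBP and TCP were cut to their 3034 best-scored peaks, with ties at the lowest kept score drawn at random. TIP then held 1794 genes, TBP 1865 and TCP 1867, and 1105 of 2669 genes (41.4%) were in all 3 lists. Genes in both TBP and TCP but not TIP numbered 246 (9.22% of the 2669), which is 18.2% (16.2 to 20.4) of the 1351 genes in both. Genes absent from TBP alone numbered 214 and those absent from TCP alone 187, so at equal length the 3 lists were far more alike. When tied peaks were left out instead, 207 genes were absent from TIP alone and 235 from TBP alone, which turns their order round.

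Genes in TIP alone became 288 at equal length, 10.8% of the 2669 and 16.1% (14.4 to 17.8) of the TIP genes, against 327 in TBP alone and 302 in TCP alone. These 288 are the 89 of the full lists, 48 genes with a TBP peak of lower rank, 82 with a TCP peak of lower rank and 69 with both. For regions, 462 of 5358 (8.62%) were in both TBP and TCP but not TIP, and 1029 (19.2%) were in TIP alone, against 1025 in TBP alone and 925 in TCP alone. Regions absent from TBP alone then numbered 415 and those absent from TCP alone 344. The cut changes peak width as well as number. Peaks of 25 bp, the narrowest width, made up 34.9% of the uncut TIP list but 9.23% of the cut TBP list and 9.49% of the cut TCP list, where full lists had 35.6% and 37.2%.

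**Figure D1:**
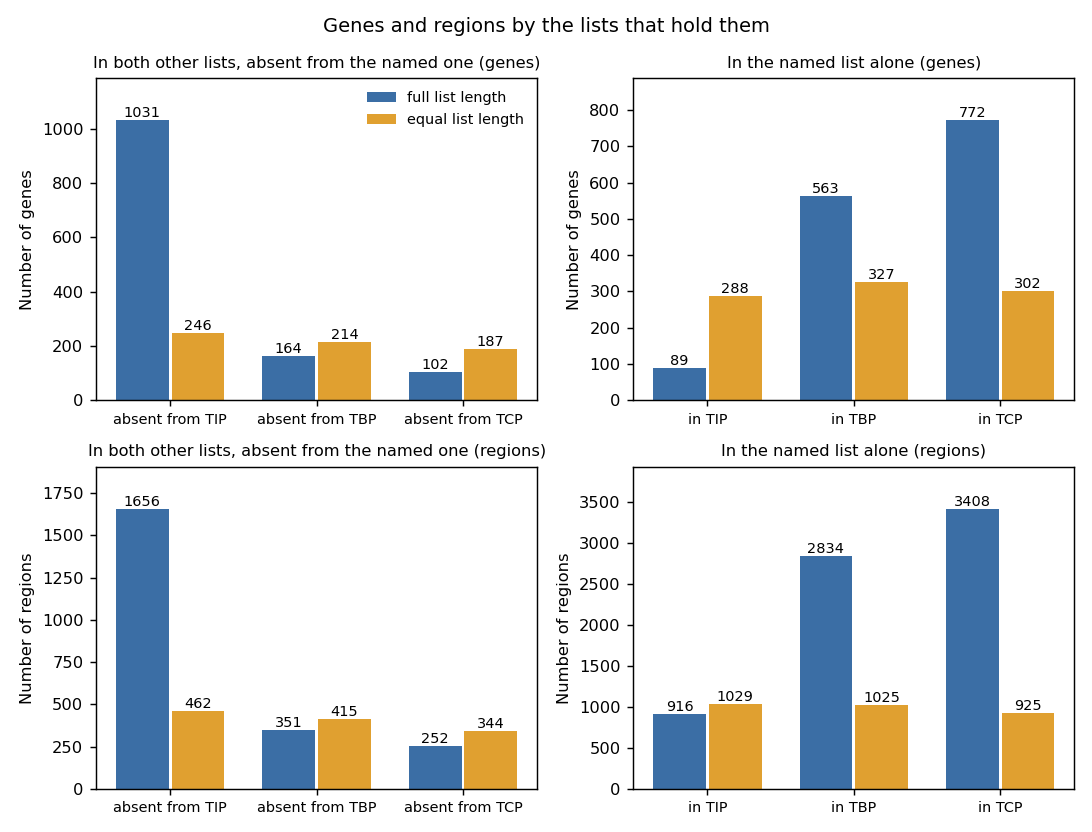
Bars give the number of genes (top) and regions (bottom) in both other lists but absent from TIP, TBP or TCP (left), or in 1 list alone (right), at full length (blue) and at equal length (yellow). The 1031 genes absent from TIP stand far above 164 and 102 at full length, and 246 stands near 214 and 187 at equal length.

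Of the 1031 genes in both TBP and TCP but not TIP, 246 (23.9%) were still in that set at equal length. Another 233 kept a peak in TBP only, 185 in TCP only, and 367 (35.6%) in none of the lists. Their strongest peak stood at a median percent rank of 52.1 in TBP and 51.1 in TCP, where 0 is the best score. Genes of all 3 lists stood at 18.2 in TBP and 15.1 in TCP. Most of the 1031 held a single peak, 68.3% of them in TBP and 65.0% in TCP, against 35.6% and 30.4% of the genes in all 3 lists. The set is thus made mainly of genes with 1 peak of middle or low rank.

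Absence from TIP followed the rank in the other lists. Among genes whose mean rank in TBP and TCP lay in the best 5%, 4.63% (2.24 to 8.35) had no TIP peak, which is 10 of 216 genes. The share was 9.77% between 10% and 20%, 34.1% between 20% and 40%, 69.3% between 40% and 60%, and 84.8% between 80% and 100%. Counted by peak, 17.1% of TBP peaks in the best 5% and 96.4% in the last 20% lay outside TIP regions. For TCP peaks the shares were 15.6% and 97.4%. TIP peaks moved in the same sense, but they were set against TBP and TCP together, both longer lists. The steepness of these trends therefore cannot be compared. In the best 20% of the TIP list 7.36% (5.42 to 9.73) had no counterpart in TBP or TCP, and in the last 20% the share was 45.4% (41.3 to 49.5).

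**Figure D2:**
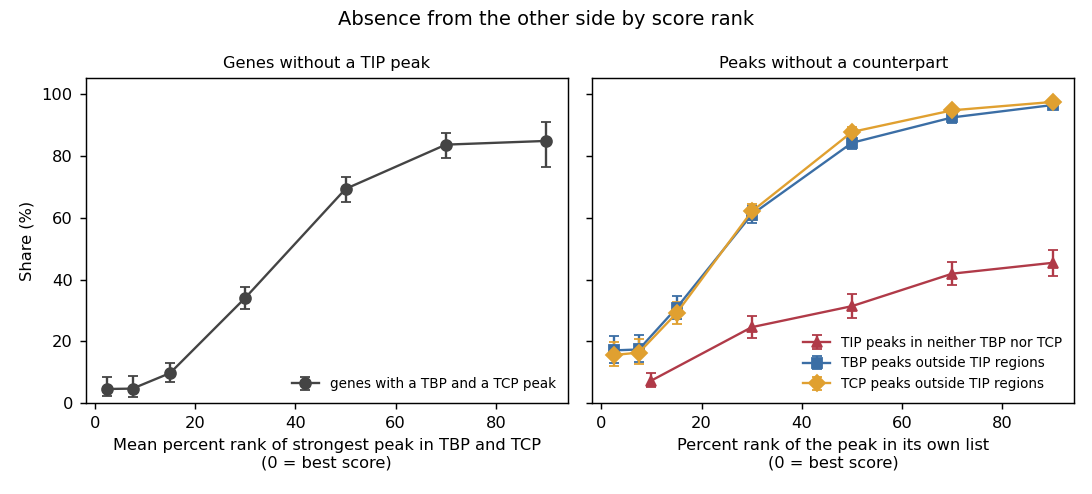
The share without a counterpart (vertical, %) is plotted against score rank (horizontal, percent, 0 = best), with exact 95% intervals. Genes with a TBP and a TCP peak lacked a TIP peak in 4.63% of cases in the best bin and 84.8% in the last (left), and TIP peaks lay outside TBP and TCP in 7.36% to 45.4% (right).

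The 3 lists placed their peaks in nearly the same parts of transcripts. By the authors' annotation, 48.8% of TIP peaks lay in 3′ UTRs, against 50.7% in TBP and 48.5% in TCP. The difference was -1.90 percentage points between TIP and TBP (-4.06 to 0.270) and 0.263 points between TIP and TCP (-1.87 to 2.39), with normal-approximation intervals. At equal length the TIP-minus-TBP difference was -2.90 points (-5.42 to -0.385) and the TIP-minus-TCP difference -0.593 points (-3.11 to 1.92). Peaks in 5′ UTRs made up 3.49% of TIP, 3.87% of TBP and 3.85% of TCP.

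Regions called in TIP alone had another make-up than the TIP peaks shared with both other lists. Their peaks lay in 3′ UTRs in 43.4% of cases (40.2 to 46.7), against 51.8% (49.2 to 54.3) for TIP peaks in regions of all 3 lists. Among exon peaks outside UTRs, 69.7% (65.4 to 73.8) were in internal exons, against 54.3% (50.5 to 58.1). Peaks of 25 bp made up 49.2% against 27.2%. Regions called in TBP alone or TCP alone leaned the same way at full length, with 64.3% and 66.4% of exon peaks in internal exons and 53.2% and 53.3% of peaks 25 bp wide. Their 3′ UTR shares, 49.9% in TBP alone and 46.0% in TCP alone, lay above the 43.4% of TIP alone. At full length only the 95% interval of TBP alone did not overlap that of TIP alone. At equal length these shares were 44.6% (41.5 to 47.7) in TIP alone and 49.7% (46.6 to 52.8) in TBP alone. Their intervals then overlapped, which does not show that the shares were equal, and TCP alone stood at 45.8%. At equal length the internal exon shares were 69.7% in TIP alone, 61.4% in TBP alone and 61.7% in TCP alone, and peaks of 25 bp made up 504 of 1029 in TIP alone, 120 of 1025 in TBP alone and 101 of 925 in TCP alone, where only TBP and TCP were cut. TIP-alone regions at full length also held 43 of the 53 TIP peaks that spanned over 500 bp of genome. TBP-alone regions held 58 of 90 such TBP peaks and TCP-alone regions 106 of 157 such TCP peaks. At equal length these counts were 45 of 53 for TIP, 19 of 40 for TBP and 30 of 68 for TCP.

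Regions in both TBP and TCP but not TIP resembled the shared regions in annotation. Their TBP peaks lay in 3′ UTRs in 50.7% of cases and their TCP peaks in 51.0%. Internal exons held 54.9% of their TBP exon peaks and 55.9% of their TCP exon peaks.

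**Figure D3:**
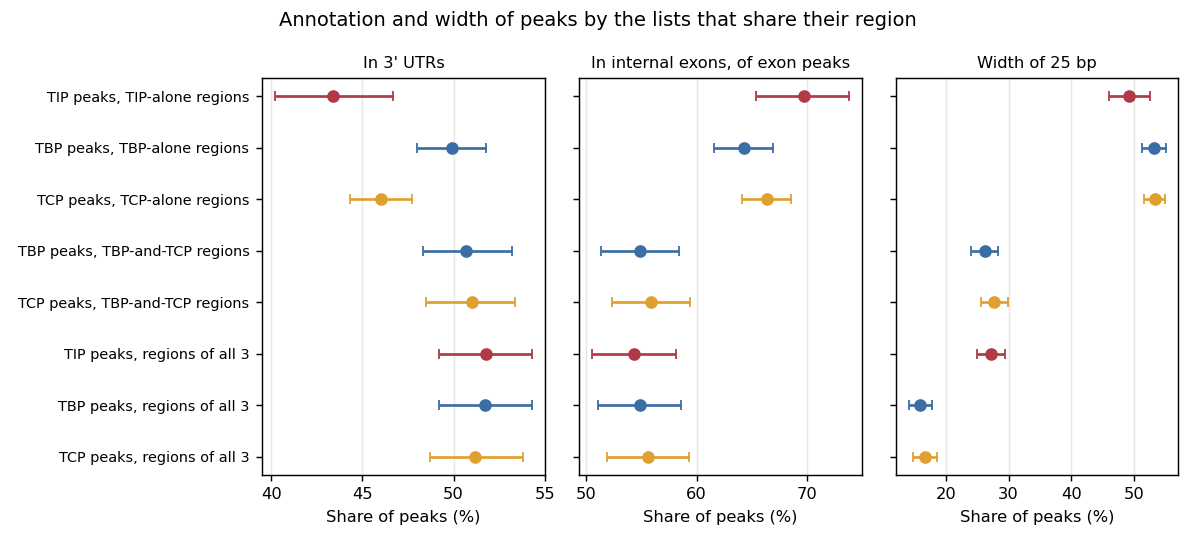
Shares of peaks (%, with exact 95% intervals; axes do not start at 0) in 3′ UTRs, in internal exons among exon peaks, and of 25 bp width, by the lists that share their region. TIP-alone peaks have 43.4% in 3′ UTRs and 69.7% of exon peaks in internal exons, against 51.8% and 54.3% for TIP peaks in regions of all 3 lists.

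At full length many TIP-alone regions sat beside a TBP or TCP peak. Of the 916, 323 (35.3%, 32.2 to 38.5) directly abutted one, and 506 (55.2%) lay within 100 bp of one. The median distance to the nearest TBP or TCP peak was 51.0 bp. Their host gene held a TBP or TCP peak elsewhere in 812 of 902 cases (90.0%) and peaks of both in 653 (72.4%). For regions in TBP alone and TCP alone, the host gene held a peak of either other list elsewhere in 77.3% and 73.5% of cases. Regions in TBP alone abutted a TIP or TCP peak in 16.6% of cases, and regions in TCP alone abutted a TIP or TBP peak in 16.1%. At equal length the abutting shares were 16.3% (14.1 to 18.7) for TIP alone, 11.3% (9.44 to 13.4) for TBP alone and 14.6% (12.4 to 17.0) for TCP alone. The shares within 100 bp were then 27.3% for TIP alone, 23.1% for TBP alone and 25.9% for TCP alone, and the median distances 1116 bp, 864 bp and 1001 bp in the same order. The host gene of a TIP-alone region held a TBP or TCP peak elsewhere in 70.0% of cases at equal length. The shares with a peak of either other list were then 65.8% for TBP alone and 64.5% for TCP alone.

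An abutting pair is seen in Ipo7, a nuclear import receptor. Its TIP peak at chr7:110055291-110055415, in the 3′ UTR, begins at the base after the TBP peak at chr7:110055216-110055290 ends, and the TCP peak at chr7:110055191-110055240 overlaps the start of the TBP peak. The 3 calls cover neighbouring bases of 1 transcript, yet the TIP call counts as a region of TIP alone. Joining peaks within 100 bp left 399 regions in TIP alone, and asking for 50% of both peaks to be shared gave 1655.

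Regions in both TBP and TCP but not TIP were set against the TIP list, which is shorter than TBP and TCP together. At full length 203 of the 1656 regions in both TBP and TCP but not TIP (12.3%, 10.7 to 13.9) had a TIP peak within 100 bp, and 90 (5.43%) abutted one. At equal length 75 of 462 (16.2%, 13.0 to 19.9) had one within 100 bp. The median distance to the nearest TIP peak was 39683 bp at full length and 15234 bp at equal length, and at full length the host gene held a TIP peak elsewhere in 800 of 1630 cases (49.1%). Among the best-scored of these regions were 3′ UTR sites of Serbp1, an RNA-binding protein, at chr6:67283970-67284144, with rank 34 in TBP and 37 in TCP, and of Itga4, the integrin alpha 4 chain, at chr2:79327421-79327595, with rank 3 in TBP and 85 in TCP. A site in an exon of Ahnak, a giant scaffold protein, at chr19:9008364-9008663 had rank 24 in TBP and 61 in TCP. All 3 genes held TIP peaks at other positions, with 3 in Serbp1, 9 in Itga4 and 34 in Ahnak. Calls on both strands at the shared end of Rhoq and Pigf, at chr17:86997294-86997393 and chr17:86997306-86997380, cover the same bases, and it cannot be told from the lists which gene they belong to.

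The genes in both TBP and TCP but not TIP with the best ranks had well-placed peaks in both lists. Rsrp1, named for its arginine- and serine-rich stretches, had no TIP peak, 1 TBP peak and 3 TCP peaks. Its strongest calls were a 200 bp 3′ UTR peak at chr4:134927048-134927247, rank 16 in TBP, and a neighbouring 100 bp exon peak at chr4:134926948-134927047, rank 46 in TCP. Naa15, a subunit of the NatA N-terminal acetyltransferase, had no TIP peak, 7 TBP peaks and 6 TCP peaks, with a best rank of 289 in TBP and 56 in TCP. The authors' nearest-gene column names Rab33b for the strongest Naa15 peaks, which lie inside Naa15 on its strand.

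Immune and signalling genes were among these 10. Icam1, the adhesion ligand of leukocyte integrins, had no TIP peak, 3 TBP peaks and 1 TCP peak. Its strongest calls overlapped in the 3′ UTR, at chr9:21027983-21028157 in TBP (rank 344) and chr9:21027933-21028132 in TCP (rank 230). Mapkapk2, the kinase MK2 that acts below p38 and stabilises cytokine messenger RNAs, had no TIP peak and a 3′ UTR peak in each of TBP (chr1:131055050-131055074, rank 289) and TCP (chr1:131055000-131055049, rank 320). Those 2 calls abut but do not overlap. Nfya, the CCAAT-binding subunit of NF-Y, had no TIP peak, 5 TBP peaks and 4 TCP peaks, with the strongest in the 3′ UTR at chr17:48389060-48389209 in TBP and chr17:48389085-48389234 in TCP.

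The other 5 of these 10 genes serve mitochondria, ubiquitin transfer, chromosome segregation and ion transport. Tfam, which packages and transcribes mitochondrial DNA, had no TIP peak, 1 TBP peak and 1 TCP peak in its 3′ UTR. Mrps26, of the small mitochondrial ribosomal subunit, had no TIP peak, 3 TBP peaks and 2 TCP peaks. Ube2q1, a ubiquitin-conjugating enzyme, had no TIP peak and 3 peaks in each of TBP and TCP. Mis12, a kinetochore protein, and Kcnk13, a potassium channel, had no TIP peak and 2 peaks in each of TBP and TCP.

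Genes with many peaks in TBP and TCP and none in TIP were of mixed rank. Trps1, a GATA-type repressor, had no TIP peak, 5 TBP peaks and 6 TCP peaks, and Trip11, a golgin, had the same numbers. Stard9, a mitotic kinesin, had no TIP peak, 5 TBP peaks and 7 TCP peaks. Arid1b, a subunit of the BAF chromatin remodeller, had no TIP peak and 4 peaks in each of TBP and TCP. These 4 genes stayed in the set at equal length. Smc4, a condensin subunit, had no TIP peak, 7 TBP peaks and 5 TCP peaks, and Ankrd17 had 6 TBP and 5 TCP peaks, but the strongest of these ranked only 3423 and 3788 in TBP and 3744 and 3393 in TCP. Neither gene held a peak in any list at equal length.

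The 89 genes in TIP alone mostly held 1 peak of low rank. Of them, 88 had a single TIP peak, against 58.9% of the genes in all 3 lists, and their strongest peak stood at a median percent rank of 67.0 in TIP, against 34.9. Genes of TBP alone and TCP alone also mostly held a single peak, in 88.3% and 86.8% of cases. The median percent ranks of their strongest peaks were 71.4 in TBP and 70.7 in TCP. The median gene span of the 89 was 15.2 kb, against 32.7 kb for genes of all 3 lists, 22.8 kb for genes of TBP alone and 23.6 kb for genes of TCP alone. At equal length the spans were 24.4 kb for TIP alone, 26.4 kb for TBP alone and 25.7 kb for TCP alone. Protein-coding genes made up 84 of the 89. In 3 of the 89, a TBP or TCP peak lay over the gene span but was given to another gene or to none, and the same held for TIP peaks in 8 of the 1031.

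Malat1 stood apart from the other TIP-alone genes. This abundant nuclear long non-coding RNA is a classic m6A target. It had 1 TIP peak, at chr19:5801190-5801264 on the minus strand, with a score of 16.6 and rank 4 of 3034, and no TBP or TCP peak anywhere over its span (chr19:5795690-5802672). The best rank of the other 88 genes was 612. Neat1, a nuclear RNA encoded nearby on the same chromosome, held 6 TIP, 7 TBP and 3 TCP peaks, with rank 1 in TIP, 5 in TBP and 1 in TCP. Neat1 was named after its values were seen.

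The other TIP-alone genes of best rank followed at a distance. Rack1, a scaffold on the small ribosomal subunit, had a TIP peak in an exon at chr11:48803882-48803956 (rank 612). Ubxn4, an ER-associated degradation factor, shared that rank, with an exon peak at chr1:128276995-128277069. Arpc5, a subunit of the Arp2/3 complex that branches actin, had a 3′ UTR peak at chr1:152775247-152775321 (rank 654), and Selenof, an ER selenoprotein, one at chr3:144596862-144596936 (rank 733). Rrm2, the small subunit of ribonucleotide reductase, had an exon peak (rank 946), and Bola2, of iron-sulfur protein assembly, a 3′ UTR peak (rank 1017). Clta, a clathrin light chain, had 1 call that spans 5507 bp of genome, chr4:44019990-44025496. Cox4i1, of cytochrome c oxidase, was the only gene of the 89 with 2 TIP peaks, the better at rank 1281. None of these 8 genes had a TBP or TCP peak.

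Some genes marked in all 3 lists held far fewer peaks in TIP. Kmt2d, a histone H3 lysine 4 methyltransferase, had 3 TIP peaks, 16 TBP peaks and 16 TCP peaks. Cenpf, a kinetochore protein, had 2 TIP, 12 TBP and 22 TCP peaks, and Srcap, the ATPase that deposits histone H2A.Z, had 2 TIP, 12 TBP and 11 TCP peaks. Tlr7, the endosomal receptor for single-stranded RNA, had 5 TIP, 15 TBP and 12 TCP peaks, and Macf1, a microtubule-actin crosslinker, 12 TIP, 19 TBP and 23 TCP peaks. At equal length there were 3 TIP, 9 TBP and 6 TCP peaks in Kmt2d, 2 TIP, 5 TBP and 11 TCP peaks in Cenpf, 2 TIP, 8 TBP and 7 TCP peaks in Srcap, 5 TIP, 6 TBP and 9 TCP peaks in Tlr7, and 12 TIP, 10 TBP and 13 TCP peaks in Macf1.

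Other genes had more TIP peaks than peaks of either other list, although TIP gave the shortest list. Ncl, nucleolin, had 8 TIP peaks, 4 TBP peaks and 1 TCP peak. Hnrnpm, a splicing regulator, had 6 TIP peaks, 2 TBP peaks and 2 TCP peaks, and no TBP peak at equal length. Kpnb1 (importin beta 1) had 5 TIP, 2 TBP and 1 TCP peaks, Ipo7 5 TIP, 3 TBP and 3 TCP peaks, and Ppp4r3a, a regulatory subunit of protein phosphatase 4, 6 TIP, 4 TBP and 4 TCP peaks. For the only TCP peak of Ncl, the authors' nearest-gene column names Snord82, a small nucleolar RNA encoded in an intron of Ncl.

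**Figure D4:**
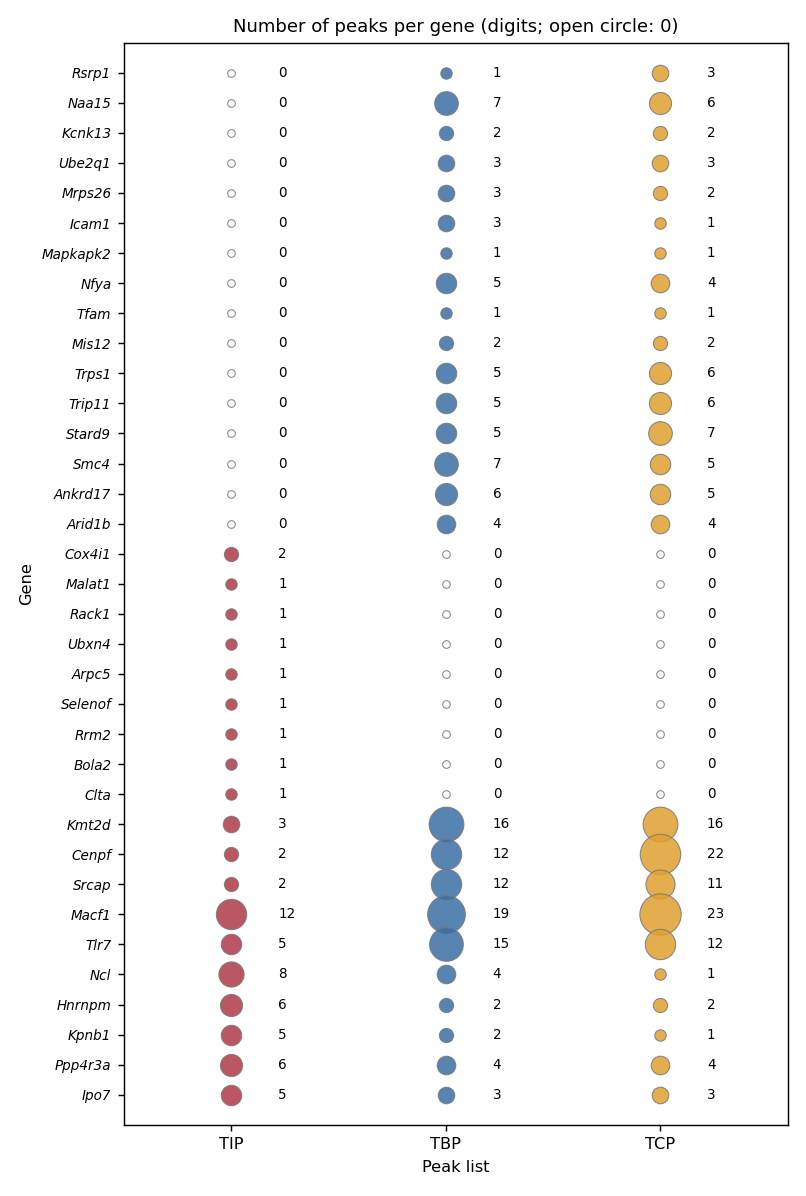
Number of peaks per gene (digits, circle area growing with it, open circles for 0) in TIP, TBP and TCP, for the genes selected by rank and peak number. The first 16 genes have no TIP peak, the next 9 have TIP peaks only, and the last 10 have peaks in all 3 lists, from Kmt2d with 3, 16 and 16 to Ipo7 with 5, 3 and 3.

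Gene functions were described with 32 lists, by the share of members with a peak that fell in each set. All genes give 24.8% in both TBP and TCP but not TIP and 2.14% in TIP alone. Of the actin cytoskeleton list, 9 of 22 genes (40.9%) were in both TBP and TCP but not TIP and 1 was in TIP alone. The 9 include 4 parts of the Arp2/3 complex, Actr2, Arpc1b, Arpc2 and Arpc4, the filamin Flna, which crosslinks actin, and the myosin heavy chain Myh9. Arpc2 had no TIP peak, 3 TBP peaks and 1 TCP peak, and was the only one of the 9 that stayed in the set at equal length. Arpc5, of the same complex, was the TIP-alone gene, so members of 1 complex fell in opposite sets.

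Adhesion and membrane traffic genes lay nearer the share of all genes. Of the integrin and adhesion list, 4 of 12 genes (33.3%) were in both TBP and TCP but not TIP: Icam1, the focal adhesion kinase Ptk2 (no TIP peak, 2 in TBP, 3 in TCP), paxillin (Pxn) and talin (Tln1, no TIP peak, 2 in TBP, 3 in TCP). Of the Rab and endosome list, 17 of 57 (29.8%) were in that set and 2, Rab7 and Tsg101, were in TIP alone. The only Rab7 call spans 3715 bp of genome. Cltc, the clathrin heavy chain, had no TIP peak, 3 TBP peaks and 5 TCP peaks, and Rab35 had 4 TBP and 2 TCP peaks. Both stayed in the set at equal length, while the light chain Clta was in TIP alone. At equal length the counts in both TBP and TCP but not TIP were 1 of 16 for actin, 1 of 7 for adhesion and 2 of 35 for Rab genes, against 9.22% of all genes. The 1 adhesion gene was Icam1. In TIP alone there were then 3 of 16 actin, 0 of 7 adhesion and 6 of 35 Rab genes, against 10.8% of all genes.

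Chromatin and DNA-binding genes were near the share of all genes. Of the chromatin list, 14 of 59 (23.7%) were in both TBP and TCP but not TIP and 0 in TIP alone. Among the 14 were Brd2, a reader of acetylated histones (no TIP peak, 4 in TBP, 2 in TCP), Tet2, which oxidises methylcytosine and had 3 peaks in each of TBP and TCP, and Dot1l, the H3 lysine 79 methyltransferase. These and Arid1b were among the 5 of 51 genes (9.80%) in the set at equal length. Zfp zinc finger genes gave 25 of 92 (27.2%) and 0 in TIP alone. At equal length 3 of 63 were in the set, against 9.22% of all genes. In TIP alone at equal length were 5 of 63 Zfp genes and 1 of 51 chromatin genes, against 10.8% of all genes. Of the DNA repair list 6 of 26 (23.1%) were in the set, among them Brca2 with 3 TBP and 4 TCP peaks and the helicase Wrn with 3 TBP and 2 TCP peaks. At equal length 1 of 17, Wrn, stayed in the set and 1 of 17 was in TIP alone.

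RNA processing genes gave similar shares. Of the splicing list, 11 of 45 (24.4%) were in both TBP and TCP but not TIP and 1 in TIP alone. At equal length these counts were 1 of 35 and 4 of 35, against 9.22% and 10.8% of all genes. Sf3b1 had no TIP peak, 2 TBP peaks and 2 TCP peaks, whereas Sf3b2, of the same SF3b complex, had 1 TIP peak and none in TBP or TCP. The Sf3b2 call is 25 bp wide, at rank 1565, and the authors' nearest-gene column names Pacs1 for it. Of the list for 3′ end formation, export and decay, 8 of 43 (18.6%) were in the set, led by Ago2, the slicing Argonaute, with no TIP peak and 4 peaks in each of TBP and TCP. Ago2, Clp1, Cpsf4 and Cpsf6 stayed in the set at equal length, 4 of 32 genes (12.5%), and 4 of 32 were then in TIP alone. Pabpn1, the nuclear poly(A)-binding protein, was in TIP alone, by a 25 bp call at rank 2704. Its score, 10.7, is the lowest of the TIP list and is shared by 331 peaks.

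Genes of the m6A system itself were mostly marked in all 3 lists. Of the writer list, 6 of 8 genes with a peak were in all 3, against 34.6% of all genes, and 1, Cbll1 (HAKAI), was in both TBP and TCP but not TIP, with 2 peaks in each. Of the eraser and reader list, 6 of 8 were in all 3, and Hnrnpc had no TIP peak and 1 peak in each of TBP and TCP. Ythdf2, a reader that promotes RNA decay, had 4 TIP, 7 TBP and 6 TCP peaks, and Ythdf3 had 4 TIP, 4 TBP and 6 TCP peaks. At equal length 4 of 7 writers and 4 of 6 erasers and readers were in all 3 lists, against 41.4% of all genes, and neither Cbll1 nor Hnrnpc was in the set.

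Among macrophage and immune lists, interferon and JAK-STAT genes gave 4 of 15 (26.7%) in both TBP and TCP but not TIP, near the share of all genes. These 4 were Ifngr2, a chain of the interferon gamma receptor, with no TIP peak, 2 TBP peaks and 1 TCP peak, the transcription factor Stat6 with the same numbers, and the signalling inhibitors Socs5 and Socs6. Of the macrophage list, 3 of 17 genes (17.6%) were in both TBP and TCP but not TIP: the lineage transcription factors Irf8 (no TIP peak, 1 in TBP, 3 in TCP) and Spi1 (1 in TBP, 2 in TCP) and the phosphatase Ptprc (1 in TBP, 3 in TCP). Tyrobp, the DAP12 adaptor, had 1 TIP peak and none in TBP or TCP. That call is 25 bp wide, at rank 2269, and the authors' nearest-gene column names Hcst for it. Csf1r, the receptor for the macrophage growth factor, had peaks in all 3 lists, with 4 in TIP, 4 in TBP and 5 in TCP. Toll-like receptor genes gave 2 of 15 (13.3%), Irak1 and Tab1, the MAP kinase list 2 of 21 (9.52%), the cytokine list 1 of 4, Vegfa, and the NF-kB list 0 of 4. At equal length the same set held 1 of 14 macrophage genes, Irf8, and 1 of 10 interferon and JAK-STAT genes, Ifngr2. It then held 0 of 10 Toll-like receptor, 0 of 16 MAP kinase, 0 of 2 cytokine and 0 of 3 NF-kB genes. The share of all genes was 9.22%.

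Stress and growth lists were small. Of the integrated and ER stress list, 4 of 25 (16.0%) were in both TBP and TCP but not TIP. Eif2ak3, the ER stress kinase PERK, had no TIP peak and 3 peaks in each of TBP and TCP, and with Herpud1 and Sesn2 it stayed in the set at equal length, 3 of 21 genes (14.3%) against 9.22% of all genes. Pdia6, an ER disulfide isomerase, had no TIP peak, 3 TBP peaks and 6 TCP peaks. Of the PI3K, mTOR and FOXO list, 5 of 19 (26.3%) were in the set, among them Rictor with 3 TBP and 3 TCP peaks, Mtor, Akt1 and Foxo1. Only Rictor stayed in the set at equal length, 1 of 13 genes (7.69%), and 1 of 13 was then in TIP alone. Of the BCL-2 and apoptosis list, 2 of 13 (15.4%) were in both TBP and TCP but not TIP, Bcl2l1 and Birc2, and 1 was in TIP alone. At equal length 1 of 10, Bcl2l1, stayed in the set and 2 of 10 were in TIP alone. All genes then gave 9.22% and 10.8%. Bcl2l1 (BCL-XL), which opposes apoptosis, had no TIP peak, 3 TBP peaks and 1 TCP peak, and Bax, which promotes it, had 1 TIP peak and none in TBP or TCP. The Bax call is 25 bp wide, at rank 1959, and the authors' nearest-gene column names Ftl1 for it.

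Genes of respiration and translation gave 6 of the TIP-alone genes. Of the respiratory chain and mitochondrial ribosome list, 10 of 62 (16.1%) were in both TBP and TCP but not TIP, and 4 (6.45%) were in TIP alone, against 2.14% of all genes. These 4 were the cytochrome c oxidase subunits Cox4i1, Cox6c and Cox7b and the mitoribosomal Mrps12. Cox5a, of the same oxidase, had no TIP peak, 1 TBP peak and 2 TCP peaks. Of the cytosolic ribosomal proteins, 3 of 26 (11.5%) were in both TBP and TCP but not TIP and 2 (7.69%), Rpl8 and Rpl32, were in TIP alone, each with 1 peak. At equal length TIP alone held 7 of 40 respiratory-list genes and 3 of 10 ribosomal protein genes, against 10.8% of all genes. Ferritin heavy chain, Fth1, also had 1 TIP peak and none in TBP or TCP. The Fth1 and Rpl32 calls had the lowest score of the TIP list. Many of these genes have processed pseudogenes, and how the authors treated reads that match several places is not given in the sources used here, so their single peaks are uncertain.

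Solute carriers, the largest family of transporters, gave 20 of 77 (26.0%) in both TBP and TCP but not TIP and 1, Slc35b1, in TIP alone. At equal length these counts were 5 of 55 and 7 of 55, against 9.22% and 10.8% of all genes. Of the 10 nuclear long non-coding RNAs listed, 5 had a peak. Kcnq1ot1, an imprinted antisense RNA, had no TIP peak and 3 peaks in each of TBP and TCP at full length and stayed in the set at equal length. Gas5 and Pvt1 had no TIP peak and 1 peak in each of TBP and TCP, and Malat1 was in TIP alone. Among the lists not described so far, 8 of 43 ubiquitin ligases and deubiquitinases, 5 of 29 cell cycle genes, 4 of 17 lipid genes, 3 of 19 translation factors, 3 of 17 antioxidant genes, 3 of 16 immediate-early and MYC-group factors, 2 of 10 nuclear receptor genes and 0 of 5 histone genes were in both TBP and TCP but not TIP. Whether the libraries keep strand is not given in the sources used here, so calls on Kcnq1ot1 and on Kcnq1, to which it runs antisense, may not be separable.

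**Figure D5:**
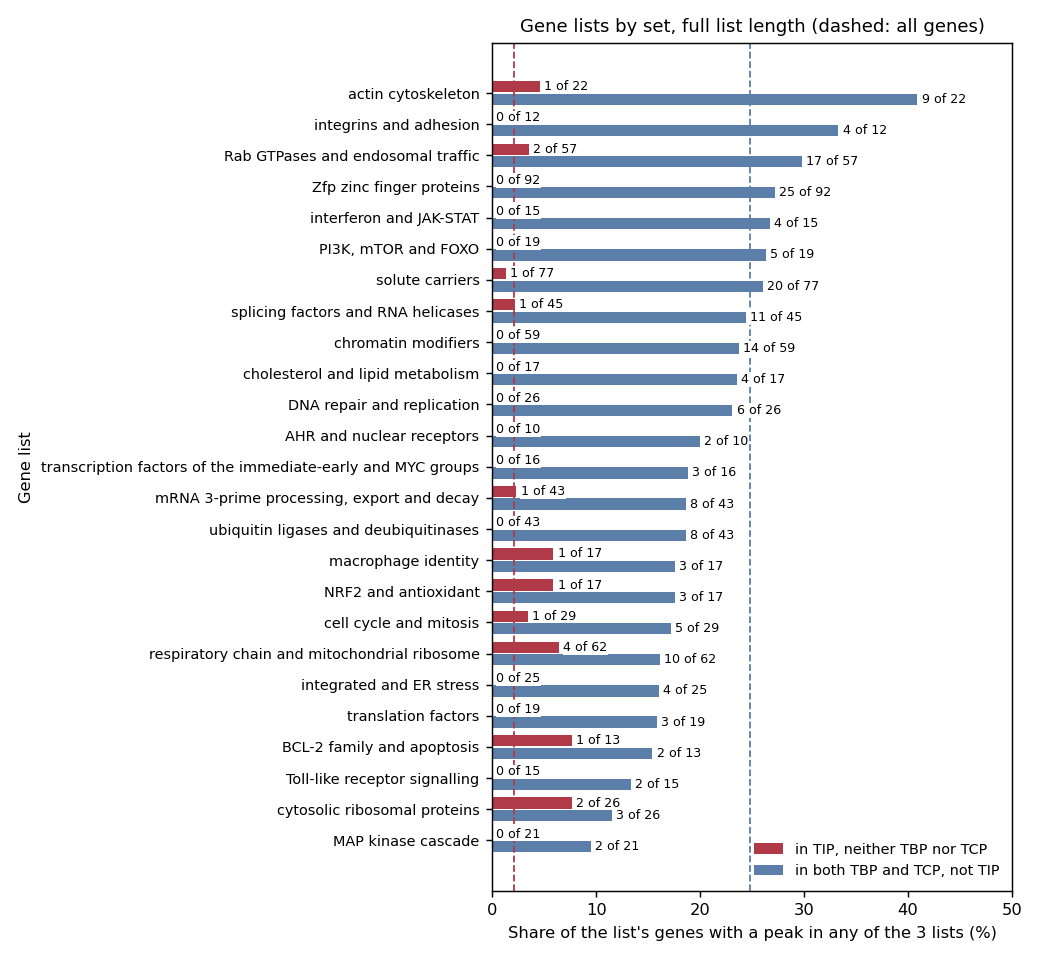
Share of each gene list's members with a peak (%) that were in TIP alone (red, upper bar) or in both TBP and TCP but not TIP (blue, lower bar), for lists with at least 10 such members, with counts beside the bars. Dashed lines mark all genes, 2.14% and 24.8%, and the actin list reaches 40.9% and the MAP kinase list 9.52%.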

How the data were processed

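RNA of RAW264.7 cells was immunoprecipitated with an anti-m6A antibody, per the labels' protocols. Tools named in the submitters' processing notes, without roles, are ChIPseeker 1.26, deepTools 3.5.0, DESeq2 1.30.1, FastQC 0.11.9, HISAT2 2.1.0, HOMER 4.11, Picard 2.23.5, SAMtools 1.9, StringTie 2.1.4 and Trim Galore 0.6.5, with builds GRCm38 and mm10. Which program called peaks, at what threshold and with what input is not given in the sources used here. The authors deposited 1 list per immunoprecipitated library, with position, strand, annotation, nearest gene, width in bp and 1 score per peak. The authors' score ranks peaks within a list only: it takes 44 distinct values in TIP (10.7 to 17.6), 253 in TBP (8.56 to 80.0) and 214 in TCP (8.73 to 40.4). Control was left out because the comparison is among the 3 compounds.

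Peaks were given to the gene that holds them on their strand, from the exon annotation (45.4% of 16300), else the nearest gene if it spans the peak (37.3%), else a single RefSeq gene over it (15.9%, GRCm38.p6). This placed 98.6%, and 23.4% of placed peaks differ from the nearest-gene column. Tied peaks share the best rank of the tie, and percent rank is the mean rank of the tie over the list length. Distances run from end to start, so abutting peaks are 1 bp apart.

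The members and gene lists were chosen with earlier results of these data known. Named genes are those of best mean rank (10) or most peaks (8) in both TBP and TCP but not TIP, of most peaks or best score (8 each) in TIP alone, of largest excess in peak number among genes in all 3 (5 each way), the 6 best regions per set, and up to 4 members per list and set, without unnamed genes and pseudogenes. Which of them are told, and further list members, was decided after their values were seen. The steps were checked on planted peaks. Python 3.11.15, pandas 2.3.3, scipy 1.17.1 and matplotlib 3.10.9 were used. Alternatives were other list lengths, score minima, peak widths, gene columns and overlap rules. Results for a few genes are not reported here.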

Additional observations from a re-analysis of the deposited data

How the results depend on the processing

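The gene counts moved with list length, score minimum and the number of peaks asked of a gene. In the order of genes in both TBP and TCP but not TIP, genes in TIP alone, regions in both TBP and TCP but not TIP and regions in TIP alone, the full lists gave 1031, 89, 1656 and 916. The first 3 became 246, 288 and 462 at equal length, 263, 277 and 484 with all tied peaks kept, and 207, 318 and 396 with all tied peaks left out, while regions in TIP alone stayed between 1022 and 1059. Lists cut to 1517 peaks, TIP included, gave 158, 159, 242 and 456. Peaks at or above each list's own median score gave 720, 56, 994 and 307. A common minimum at the lowest TIP score sets scores of different lists against each other and left 463 TBP and 553 TCP peaks; it gave 12, 1298, 38 and 2405. Asking for 2 or more peaks per gene gave 495 and 25 genes. Asking for 50% of both peaks to overlap gave 1655 regions in TIP alone, and joining peaks within 100 bp gave 399. Leaving out peaks over 500 bp, using the nearest-gene column, ignoring strand and comparing pair by pair, the last chosen after seeing the data, kept every count within 1.5 times. The 3′ UTR difference stayed between -3.30 and -1.73 points for TIP minus TBP and between -0.972 and 0.263 for TIP minus TCP. No paired analysis was possible because each compound has 1 library. Single libraries and unknown depth limit every count.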
